A study of Mus musculus with 8 samples.

Results

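Cluster 9 was 1 of the 12 clusters into which the authors divided single cells of cultured white fat preadipocytes, and it is labelled here by Ube2c and Cenpf, genes of mitosis that were also detected in most cells of the other cycling clusters. Clusters are numbered from 0 to 11 here, as deposited, whereas the paper's numbers run up to 12. Cluster 9 here is therefore not to be taken for the paper's cluster 9. Its members here are the 938 genes that the deposited table of cluster markers lists for cluster 9, out of 13337 entries for all 12 clusters. The same genes were read in cluster 5, with 1057 entries, and in cluster 6, with 1416 entries, the other clusters led by cell cycle genes. The preadipocytes came from the inguinal white adipose tissue of C57BL/6 mice, either wild type (WT) or lacking both Hmgn1 and Hmgn2 (double knockout, DKO), and were grown on collagen-coated plates. They were taken on day 0, before induction, or on day 6 of a browning protocol, with 2 samples in each of the 4 groups and 8 samples in all. Per the study's methods, the protocol gave insulin, dexamethasone, IBMX, T3 and rosiglitazone for 4 days and then insulin and T3 only. The knockout was of the whole animal and not restricted to fat, and nothing in the sources used here says whether the 2 samples of a group came from separate animals. Immune, glial and endothelial cells had been removed by the authors, and no gene of the lists kept for these cells had an entry in any cluster.

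Each value below is a detection: the percent of cells in which at least 1 molecule of the gene was counted. It is given inside the cluster and in all cells outside it, and differences are in percentage points. The table pools the cells of all 8 samples, so there is no replicate, no error and no test behind any value, and neither genotypes nor days could be compared. Clusters were built from the expression of these same genes, so the detections describe the cluster and are no independent evidence of it. A difference of at least 10 points was counted as higher or lower. A gene without an entry had missed the minimums of the authors' marker search in that cluster, which says nothing of it being undetected there. Detection rises with the number of molecules read per cell, which the table does not give and whose part in the results was not tested, and detections of different genes are not compared as expression levels.

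A dividing cell copies its DNA in S phase, prepares for division in G2 phase and then divides in mitosis. Cyclin B and its kinase Cdk1 drive entry into mitosis, kinetochores attach the condensed chromosomes to the spindle, and a ubiquitin ligase, the anaphase-promoting complex, then destroys cyclin B and securin so that the chromosomes separate. The messenger RNAs of many mitotic proteins build up late in the cycle, while those of DNA replication proteins and replication-dependent histones peak in S phase. In cultured fat precursors division precedes terminal differentiation, and mature adipocytes do not usually divide.

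Cluster 9 held 5.80% of all cells, which made it the tenth largest of the 12 clusters. This share was solved from the detections themselves, since a gene's detection over all cells must come out the same from every cluster that lists it. Cluster 5 held 8.81% and cluster 6 held 7.46%, so that the 3 cycling clusters together made up 22.1% of the cells.

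Both marker genes were detected in most cells of the cluster. Ube2c, at chr2:164769898-164778822 (mm10, plus strand), encodes the ubiquitin-conjugating enzyme that works with the anaphase-promoting complex. It was detected in 90.2% of cluster 9 cells against 17.2% of all other cells. Cenpf, at chr1:189640606-189688086 (minus strand), encodes a large kinetochore-associated protein, and was detected in 86.4% of cluster 9 cells against 15.3% elsewhere. Most of the cells outside cluster 9 that had either gene lay in the other cycling clusters. Ube2c was detected in 70.9% of cluster 5 and 73.2% of cluster 6, and Cenpf in 58.2% and 83.0%. With these removed through the solved shares, 5.81% of the remaining cells had Ube2c and 3.99% had Cenpf. These are the values by which the cluster was labelled, so they describe the label and do not test it. Neither gene was confined to cluster 9, which held 24.4% of all cells with Ube2c and 25.8% of those with Cenpf.

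Of the 938 members, 721 (76.9%) were detected in at least 10 points more of the cluster 9 cells than of all other cells, and 18 (1.92%) in at least 10 points fewer. The remaining 199 lay within 10 points, and 54 of these were already detected in 90% or more of the other cells, which leaves little room for a rise. The median member was detected in 84.5% of cluster 9 cells and 57.75% of other cells, a median difference of 23.95 points. Counted at any size of difference, 869 members were higher and 69 lower. The gain thus ran through most of the list and was not limited to genes of division, and the genes of division stood at its upper end. Among the 52 members that were at least 50 points higher, 40 belonged to the 4 mitotic lists described below.

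The 15 members with the largest differences were all genes of G2 phase, mitosis or proliferation. Cenpa, the histone variant that marks the centromere, came first, with 95.7% of cluster 9 cells against 12.7% of other cells. Hmmr, a spindle-associated protein also known as a hyaluronan receptor, was detected in 90.7% against 14.0%. Cdc20, which activates the anaphase-promoting complex, was detected in 86.6% against 10.7%. These genes went from a small minority of cells outside to nearly every cell inside. Birc5 (95.5% against 19.7%) and Cdca8 (89.2% against 17.3%) encode survivin and borealin, subunits of the chromosomal passenger complex that corrects faulty spindle attachments. Cdca3 (89.9% against 14.5%) encodes a protein that promotes entry into mitosis, and Tpx2 (93.8% against 21.0%) a spindle assembly factor that activates the Aurora A kinase. The B-type cyclins Ccnb2 (85.3% against 10.9%) and Ccnb1 (82.0% against 11.5%) were close behind. Mki67, the proliferation marker used by the study, was detected in 91.2% against 18.7%. The rest of the 15, besides Ube2c and Cenpf, were Anln (85.3% against 15.3%), encoding the anillin of the cleavage furrow, Cdkn3 (78.4% against 8.7%), encoding a phosphatase of cyclin-dependent kinases, and Cenpe (83.9% against 14.3%), encoding the kinesin of the kinetochore.

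**Figure D1:**
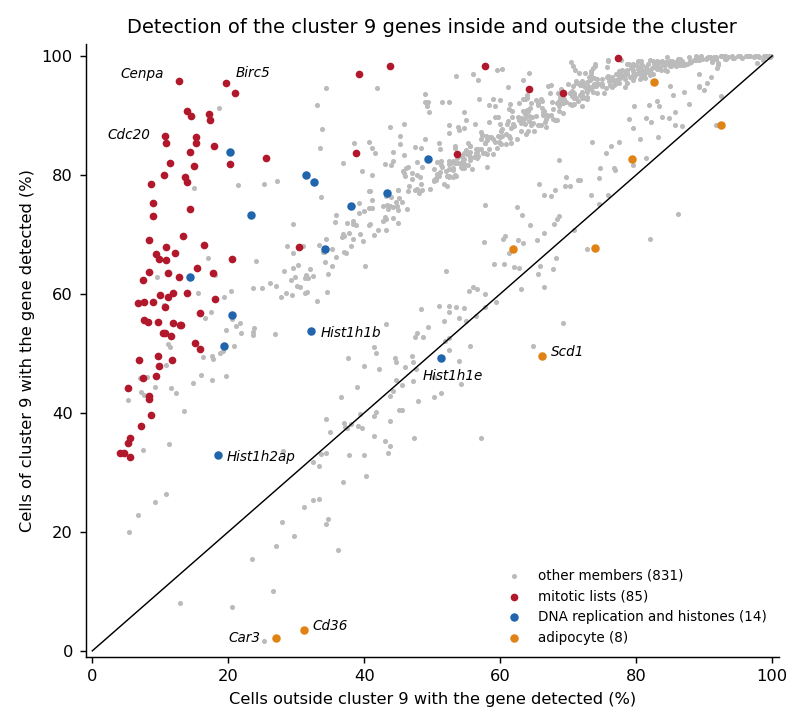
Percent of cells with each of the 938 cluster 9 genes detected, outside the cluster (horizontal axis) and inside it (vertical axis), 1 point per gene with the line of equal detection, coloured by gene list. The 85 mitotic genes lie far above the line, mostly at the left edge. The histone gene Hist1h1e lies just under the line, and Car3 and Cd36 lie near the bottom.

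The 4 lists of mitotic genes held 125 genes, of which 101 had an entry in some cluster and 85 had one in cluster 9. All 85 were higher, where 76.9% of all members were. Their differences ran from 22.4 to 83.0 points with a median of 48.9 points, against the median of 23.95 points over all members. The choice of these lists was made with earlier results of these data known, so the counts describe the cluster and lend it no independent support.

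Among the cyclins and kinases, 18 members were listed with a median difference of 49.0 points. Plk1, the polo-like kinase that acts from mitotic entry to cytokinesis, was detected in 75.3% of cluster 9 cells against 8.9% of others, and Aurka, the Aurora A kinase of the spindle poles, in 62.4% against 7.5%. Cdk1 itself was more widespread outside, at 25.5%, and reached 82.9% in cluster 9. Cyclin A2 (Ccna2), which accumulates from S phase on, was detected in 78.8% against 13.9%. The phosphatases Cdc25b (35.0% against 5.2%) and Cdc25c (33.3% against 4.1%), which switch Cdk1 on, were detected in the fewest cells of this list.

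Of the mitotic exit ubiquitin ligase list, 7 genes were listed, all higher, where 76.9% of all members were. Pttg1, encoding securin, the guard of the cohesin-cutting protease, was detected in 65.8% of cluster 9 cells against 20.5% of others. Fzr1, encoding the activator that replaces Cdc20 at the end of mitosis, was detected in 50.8% against 15.8%. The constant parts of the machinery were detected widely outside the cluster too, as with the ligase subunit Anapc11 (94.4% against 64.3%) and the chain-elongating enzyme Ube2s (99.7% against 77.3%).

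The kinetochore and checkpoint list had 26 members with a median difference of 47.75 points. Bub1b, a spindle checkpoint kinase-like protein, was detected in 65.9% against 9.8%. Ndc80 (57.8% against 10.7%) and Nuf2 (58.7% against 8.9%), subunits of the complex that grips microtubules, were at similar detections. Knstrn, a kinetochore and spindle adaptor, was detected in 79.9% against 10.5%. The checkpoint protein Bub3, which also has roles outside mitosis, was the most common outside the cluster, with 83.5% against 53.6%.

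The spindle and cytokinesis list was the largest of the 4, with 34 members, and had the highest median difference, 52.05 points. Its motor proteins included Kif20a (73.1% against 8.9%) and Kif23 (69.0% against 8.3%), kinesins of the central spindle, and Kif11 (62.8% against 12.7%), which pushes the spindle poles apart. Racgap1, the partner of Kif23 in the central spindle, was detected in 81.5% against 14.9%. Ect2, which Racgap1 recruits to start furrowing, was detected in 55.2% against 8.2%, and Cep55, which acts in the final cut between the daughter cells, in 48.9% against 6.8%. Genes that act from the assembly of the spindle to the separation of the daughter cells were therefore all among those higher.

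Genes of chromosome structure were also higher, as were 76.9% of all members, although fewer such genes were listed. The condensation and cohesion list had 16 genes with an entry in some cluster and 8 in cluster 9, all higher, with a median of 44.05 points. Besides Mki67 they included the condensin subunits Smc2 (91.7% against 33.1%) and Smc4 (93.6% against 48.9%) and the DNA-untangling enzyme Top2a (78.9% against 27.2%). The nuclear lamina and chromatin list had 17 members, all higher, with a median of 26.5 points, near the 23.95 points over all members. It was led by the lamin gene Lmnb1 (78.4% against 25.3%) and the lamina-associated Tmpo (85.3% against 38.5%). Of 9 tubulin members, 8 were higher, where 76.9% of all members were. These 8 ran from Tubb6 (96.7% against 53.5%) to Tuba1b (99.3% against 75.8%), and Tubb5, detected in 90.4% of other cells, was 9.3 points higher. The tubulin genes are close in sequence, so that reads may be split between them. Foxm1, the transcription factor that drives many G2 and mitotic genes, was the single listed member of 6 mitotic transcription regulators with an entry in some cluster, and was detected in 43.0% against 7.6%.

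For a gene with entries in clusters 5, 6 and 9 the detection in all the remaining cells could be solved. Over the 54 mitotic genes listed for all 3 it had a median of 3.98%, from 0.832% to 73.0%. Cluster 9, with 5.80% of the cells, held a median of 24.5% of the cells in which a mitotic member was detected, against 7.73% over all members. Its largest portion was 35.6%, for Cdkn3. Outside the 3 cycling clusters most mitotic genes were thus detected in few cells, and most cells with a typical mitotic gene still lay outside cluster 9.

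The promoters of these genes were read next, because late cell cycle genes are known to share 2 short elements close to their start sites. The CCAAT box (CCAAT, or ATTGG on the other strand) binds the NF-Y factor, and the cell cycle genes homology region (CHR, here TTTGAA or TTTAAA, or TTCAAA on the other strand) binds the repressor and activator complexes that time late genes. RefSeq promoters of assembly GRCm38.p6, the assembly of mm10, were available for 71 of the 85 mitotic members, 755 of the 938 members and 27025 genes in all. The stretches below, 5′ to 3′ on the strand of the gene, are those of both markers, of genes among the 15 leading members, and of Plk1, with Birc5 as one without a match, and capitals mark each CCAAT box and CHR.
Ube2c, chr2:164769789-164769927, plus strand: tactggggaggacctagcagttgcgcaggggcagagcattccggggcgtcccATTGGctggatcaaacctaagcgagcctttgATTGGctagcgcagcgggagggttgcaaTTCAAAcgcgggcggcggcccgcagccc
Cenpf, chr1:189688067-189688226, minus strand: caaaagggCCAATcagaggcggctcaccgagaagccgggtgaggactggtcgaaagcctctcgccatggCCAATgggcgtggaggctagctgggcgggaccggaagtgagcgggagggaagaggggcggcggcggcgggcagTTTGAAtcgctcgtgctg
Ccnb2, chr9:70421535-70421694, minus strand: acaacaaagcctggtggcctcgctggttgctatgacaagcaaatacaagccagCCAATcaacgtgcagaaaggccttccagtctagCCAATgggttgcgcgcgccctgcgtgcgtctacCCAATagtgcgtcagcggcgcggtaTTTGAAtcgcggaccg
Cdc20, chr4:118437324-118437483, minus strand: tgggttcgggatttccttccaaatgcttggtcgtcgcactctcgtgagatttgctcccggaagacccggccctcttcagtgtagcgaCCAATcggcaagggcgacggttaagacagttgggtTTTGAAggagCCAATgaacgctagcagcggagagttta
Plk1, chr7:122159295-122159454, plus strand: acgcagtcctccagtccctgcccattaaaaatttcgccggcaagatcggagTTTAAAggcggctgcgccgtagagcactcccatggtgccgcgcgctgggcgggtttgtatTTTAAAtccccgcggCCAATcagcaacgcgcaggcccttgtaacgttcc
Hmmr, chr11:40733418-40733577, minus strand: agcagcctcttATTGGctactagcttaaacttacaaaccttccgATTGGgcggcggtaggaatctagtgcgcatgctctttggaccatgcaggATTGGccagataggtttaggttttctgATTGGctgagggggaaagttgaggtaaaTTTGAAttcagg
Birc5, chr11:117849097-117849256, plus strand: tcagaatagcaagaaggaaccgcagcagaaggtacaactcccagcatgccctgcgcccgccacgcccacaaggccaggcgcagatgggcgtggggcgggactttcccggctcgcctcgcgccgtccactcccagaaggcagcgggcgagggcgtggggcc

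The Ube2c stretch held 2 CCAAT boxes and a CHR whose first letter lay 29 bases upstream of the RefSeq start. The GENCODE start of Ube2c given above lies just upstream of this CHR, so its side of the start depends on the annotation. The Cenpf stretch held 2 CCAAT boxes and a CHR 2 bases downstream of the RefSeq start. Hmmr had 4 CCAAT boxes and Ccnb2 had 3, each with a CHR within 10 bases downstream of the start. In the full window from 250 bases before to 50 after the start, a CHR was found in 66.2% of the mitotic members, 28.7% of all members and 30.6% of all promoters, and a CCAAT box in 71.8%, 46.6% and 41.1%. Within 50 bases on either side of the start, a window chosen after the data had been seen, a CHR was found in 57.7% of the mitotic members, 11.8% of all members and 9.54% of all promoters. Both elements together were found there in 38.0%, 5.43% and 1.48%. A site of the E2F type (TTCCCGCC, TTTCCCGC or TTTGGCGC), known from S phase genes, was found there in 4.23%, 3.18% and 1.30%, but in the full window in 7.04%, 9.54% and 3.69%, so that the order of mitotic and all members turned with the window. Of the 11 DNA replication members, 9 had a promoter, and the E2F site was found in 22.2% of these in the full window and 11.1% near the start, and the CHR together with the CCAAT box in 22.2% in either window. Such matches are of letters and do not show that a factor binds, and the promoters of Cdkn3 or any other member could hold elements written differently. The mitotic members thus carried the CHR and the CCAAT box near their start more often than the members as a whole, as a description without a test.

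**Figure D2:**
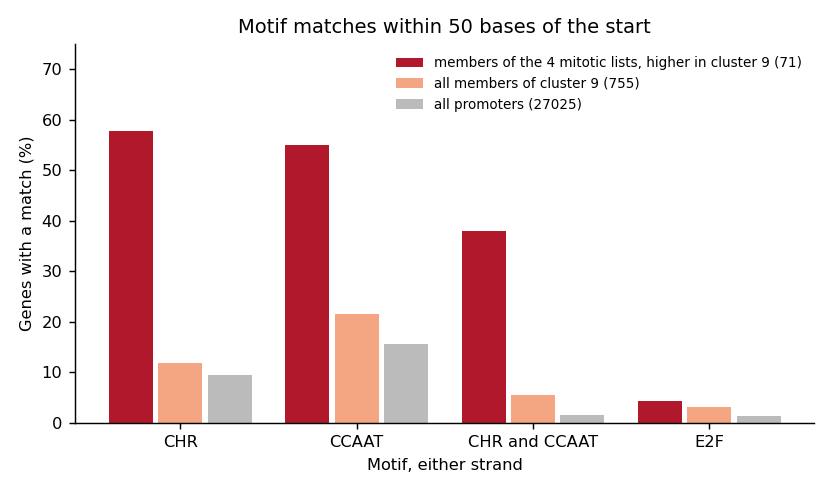
Percent of promoters with at least 1 match, on either strand within 50 bases of the RefSeq start, for the CHR element, the CCAAT box, both together and the E2F site, in the mitotic members (71), all members (755) and all promoters (27025). The bars of the mitotic members reach 57.7% for the CHR and 54.9% for the CCAAT box, against 9.54% and 15.6% of all promoters.

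Cluster 9 lay close to cluster 5 in most genes listed for both, and most of those that differed were cell cycle genes. Of 646 genes listed for both, 593 (91.8%) differed by less than 10 points, and the median of cluster 9 minus cluster 5 was −0.2 points. Only 41 (6.35%) were at least 10 points higher in cluster 9, 28 of them in the 4 mitotic lists, and 12 (1.86%) were at least 10 points lower, 8 of them in the DNA replication or histone lists. Among all 646 genes, 55 were in the mitotic lists, 11 in the DNA replication list and 3 in the histone list. The mitotic entry gene Cdca3 had the largest lead, 34.8 points (89.9% against 55.1% in cluster 5), and Hmmr followed with 32.8 points (90.7% against 57.9%). The lead was 28.2 points for Cenpf, 27.4 points for Bub1b (65.9% against 38.5%) and 26.6 points for Cenpe (83.9% against 57.3%). On the other side, Gins2, a subunit of the replicative helicase, was detected in 56.4% of cluster 9 and 78.0% of cluster 5, and Dut, which keeps uracil out of DNA, in 82.6% and 95.6%. The clusters thus differed in opposite directions for genes of division and of DNA synthesis.

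Some of the strongest genes of cluster 9 had no cluster 5 entry. Of the 85 mitotic members, 30 lacked one, whereas 8 lacked a cluster 6 entry. Over all 938 members, 646 had a cluster 5 entry and 532 a cluster 6 entry. Lacking a cluster 5 entry was thus about as common over all members, while lacking a cluster 6 entry was rarer among the mitotic ones. The 30 mitotic members without a cluster 5 entry included Cenpa, Cdc20, Ccnb1, Ccnb2, Plk1, Aurka, Cdkn3 and Kif20a. In cluster 6 the same genes were listed at lower detections than in cluster 9: 63.1% for Cenpa, 49.8% for Cdc20, 57.8% for Ccnb1, 55.8% for Ccnb2 and 54.0% for Plk1. Their order was cluster 9 above cluster 6 in each of these 5, with no value for cluster 5.

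Against cluster 6 the differences were larger and lay mostly outside the cell cycle. Of 532 genes listed for both, 247 (46.4%) differed by less than 10 points, 200 (37.6%) were at least 10 points higher in cluster 9 and 85 (16%) at least 10 points higher in cluster 6, with a median difference of 3.7 points. Of the 200 higher ones, 140 had a cluster 5 entry and 126 of these lay within 10 points of cluster 5. Of the 85 lower ones, 77 had a cluster 5 entry and 68 lay within 10 points of it. Over all 646 genes listed for clusters 9 and 5, 593 (91.8%) lay within 10 points. Closeness to cluster 5 was thus no more common in the genes called against cluster 6 than in shared genes as a whole. In most of the called genes with a cluster 5 entry, cluster 6 differed while clusters 5 and 9 were close.

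**Figure D3:**
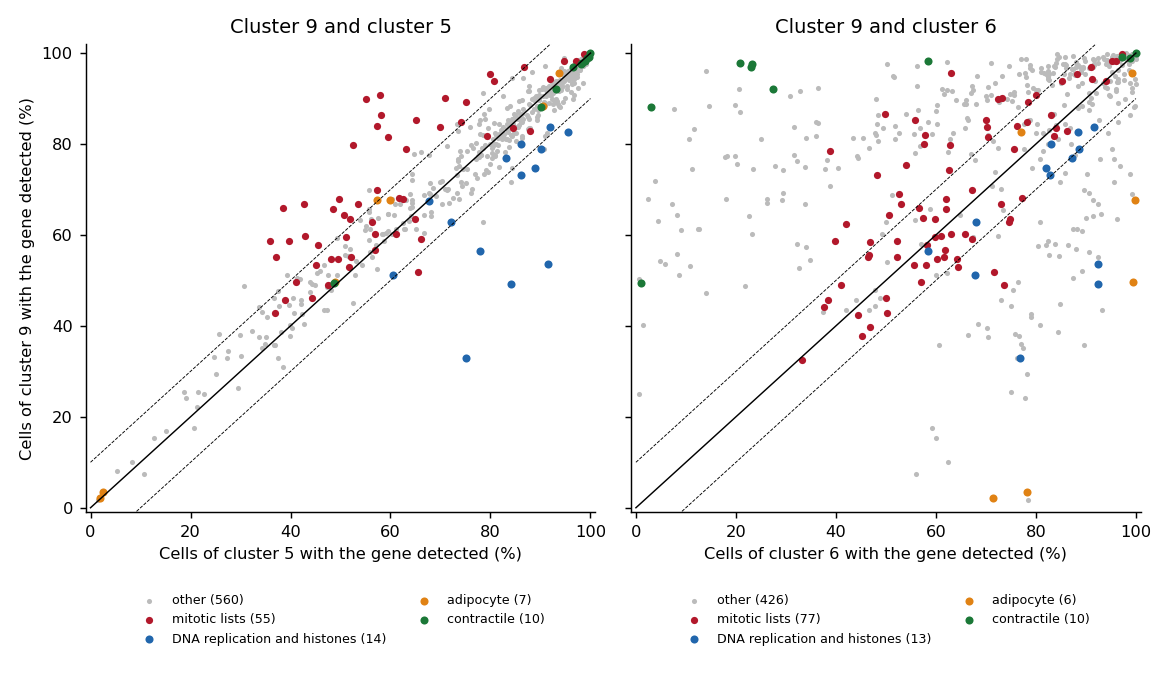
Percent of cluster 9 cells with a gene detected (vertical axes) against cluster 5 (left, 646 genes) and cluster 6 (right, 532 genes), 1 point per gene listed for both clusters, coloured by list, with the line of equal detection and dashed lines 10 points to either side. On the left most points lie between the dashed lines, with many mitotic genes above and several DNA replication and histone genes below. On the right most contractile genes lie at the upper left and several adipocyte genes at the lower right.

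Among the 408 genes listed for all 3 cycling clusters, 99 were highest in cluster 9 and 81 were lowest there. A lead of at least 10 points over both other clusters was seen for 14 genes and a deficit of at least 10 points to both for 7. The 8 largest leads over the higher of the other 2 belonged to Pimreg (18.8 points), Slfn5 (18.1), Cdca3 (17.4), Ube2c (17.0), Tacc3 (16.8), Anln (15.3), Dlgap5 (13.6) and Cenpw (13.6). All but Slfn5 are genes of division: Tacc3 stabilizes spindle microtubules, Dlgap5 bundles them near the chromosomes, and Cenpw is a kinetochore protein. Slfn5, of the Schlafen family, was an exception of another kind, since it was detected in 48.7% of cluster 9 cells and in 53.9% of all other cells, and its lead came from low detections in cluster 5 (30.6%) and cluster 6 (21.8%). Of the 54 mitotic genes listed for all 3, 30 were highest in cluster 9, 22 in cluster 6 and 2 in cluster 5, so that the lead of cluster 9 was common but not general.

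The mitotic lists differed among themselves in this respect. Against cluster 5, the median difference was 17.2 points for spindle and cytokinesis genes, all 19 of them higher in cluster 9, and 8.3 points for 23 kinetochore and checkpoint genes, 19 of them higher. It was 3.85 points over 4 genes of the exit ligase list and 1.2 points over 9 cyclins and kinases. Against cluster 6, the medians were 7.8 points for spindle and cytokinesis genes, 10.1 points for the 4 exit ligase genes, 2.75 points for cyclins and kinases and −0.55 points for kinetochore and checkpoint genes. The median over all shared genes there was 3.7 points, and relative to it the value for cyclins and kinases turned to −0.95 points. Mki67, for example, was detected in 91.2% of cluster 9, 92.0% of cluster 6 and 78.6% of cluster 5. The kinesin gene Kif15, a spindle motor, was lower in cluster 9 than in cluster 6, at 48.9% against 73.6%.

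The 7 genes at least 10 points under both other clusters were histone and chromatin genes together with Cenph, of the kinetochore list, and Top2a, of the condensation list. The 3 largest deficits to the lower of clusters 5 and 6 were histone genes: Hist1h2ap was detected in 32.9% of cluster 9, 75.1% of cluster 5 and 76.8% of cluster 6, Hist1h1b in 53.7%, 91.5% and 92.5%, and Hist1h1e in 49.2%, 84.2% and 92.5%. Outside the 3 clusters Hist1h1e was detected in 43.6% of cells, so that for this gene cluster 9 lay nearer to them than to clusters 5 and 6. The next deficits were those of Ezh2, a histone methyltransferase (62.9%, 78.5% and 80.9%), Cenph, a kinetochore gene (51.8%, 65.6% and 71.7%), Dnajc9, a histone chaperone (71.7%, 84.1% and 84.9%), and Top2a (78.9%, 90.7% and 95.3%). Rrm1, a subunit of the enzyme that makes deoxyribonucleotides, was the eighth (78.8%, 90.1% and 88.6%). Replication-dependent histone messages mostly lack the poly(A) tail by which this chemistry captures RNA, and the histone genes are close copies, so their values are uncertain and the part of this in the result was not tested.

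**Figure D4:**
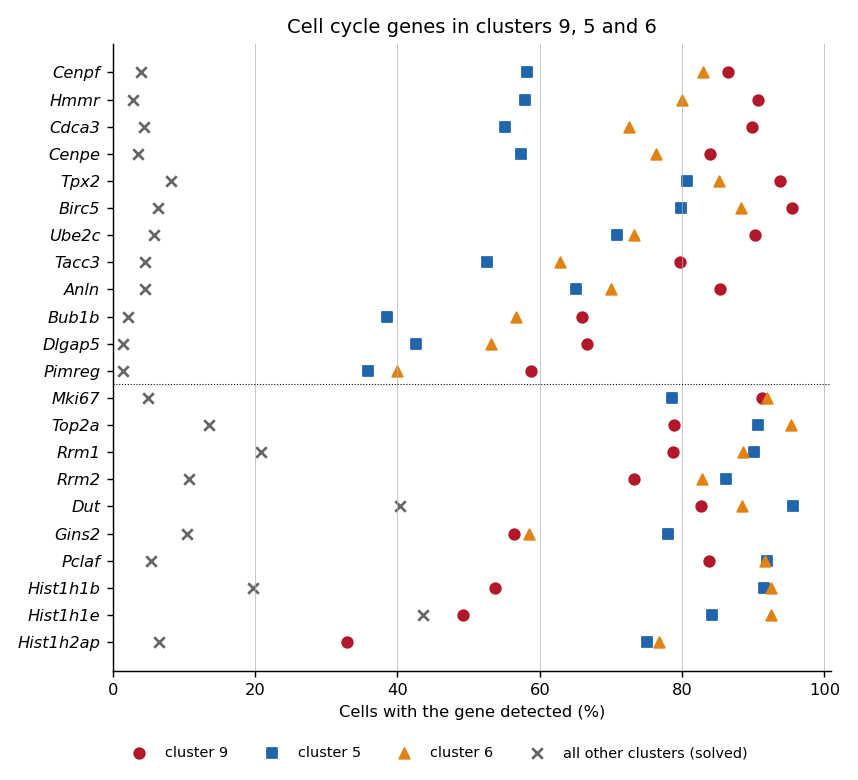
Percent of cells with a gene detected in cluster 9, cluster 5 and cluster 6, and the value solved for all other clusters, for 12 mitotic genes (above the dotted line) and 10 genes of proliferation, DNA replication and histones (below it). Cluster 9 is the rightmost point for each of the 12 genes above the line. Below the line, it lies to the left of both other cycling clusters for each gene but Mki67, where it lies between them. The 12 genes are a selection and do not stand for all mitotic genes. Of 54 mitotic genes listed for clusters 5, 6 and 9, 30 were highest in cluster 9. Another 22 were highest in cluster 6 and 2 in cluster 5.

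Fewer DNA replication genes were listed for cluster 9 than for clusters 5 and 6. Of 58 with an entry in some cluster, 57 had one in cluster 5, 52 in cluster 6 and 11 in cluster 9. Of all 3905 genes with an entry in some cluster, 1057 had one in cluster 5, 1416 in cluster 6 and 938 in cluster 9. The share in cluster 9 was thus not far from that of all genes, and clusters 5 and 6 stood above theirs. The 11 were all higher than in other cells, by 32.0 to 63.6 points, where 76.9% of all members were higher. They were lower than in cluster 5 in 11 of 11 and than in cluster 6 in 10 of 10, with medians of −9.3 and −7.55 points. Pclaf, which binds the sliding clamp of DNA polymerase, was the most prominent, with 83.8% of cluster 9 cells against 92.0% of cluster 5 and 91.6% of cluster 6. Rrm2 was detected in 73.2%, 86.2% and 82.8%, and the thymidylate synthase gene Tyms in 80.0%, 86.1% and 83.1%. Pcna, the sliding clamp itself, had no cluster 9 entry but was detected in 95.8% of cluster 5 and 93.5% of cluster 6, and the helicase genes Mcm2 to Mcm7 and the licensing inhibitor Gmnn had none either. Of 14 replication-dependent histone genes, 3 were listed for cluster 9, 7 for cluster 5 and 12 for cluster 6. Here too the share in cluster 9 was near that of all genes. Of these 3, Hist1h1b and Hist1h2ap were higher than in all other cells, and Hist1h1e was within 10 points (49.2% against 51.3%).

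Regulators of the pause between divisions gave a mixed picture. Of 11 with an entry in some cluster, 6 were listed for cluster 9 and 3 were higher, where 76.9% of all members were. Cdkn2d, a cyclin-dependent kinase inhibitor, was detected in 65.6% against 24.1% of other cells, and cyclin D1 (Ccnd1), which carries cells out of the resting state, in 44.1% against 11.6%. Cdkn1a and Cdkn1b, inhibitors that hold cells at rest, had no cluster 9 entry. The growth arrest gene Gas1 was detected in 69.8% of cluster 9 against 89.7% of cluster 6 and 55.8% of cluster 5.

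The fat cell state of cluster 9 was read from lists of precursor, contractile, matrix and adipocyte genes. Of 10 contractile genes listed, 8 were higher than in other cells, close to the 76.9% of all members, with a median of 35.35 points against 23.95 points over all members. Acta2, smooth muscle actin, was detected in 97.7% of cluster 9, 98.1% of cluster 5 and 23.2% of cluster 6, and Tagln, which binds actin, in 97.8%, 98.4% and 20.9%. Myl9, a myosin light chain, was detected in 88.1%, 90.1% and 3.1%, the largest difference from cluster 6, 85.0 points. Over the list, cluster 9 minus cluster 5 had a median of −0.5 points and cluster 9 minus cluster 6 of 56.55 points. The actin cytoskeleton genes of cultured preadipocytes thus placed cluster 9 beside cluster 5 and apart from cluster 6.

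Of 10 preadipocyte genes with an entry in some cluster, 4 were listed for cluster 9, all higher than in other cells, where 76.9% of all members were. Thy1, a surface marker of mesenchymal cells, was detected in 87.1% of cluster 9, 88.4% of cluster 5 and 20.9% of cluster 6, and Cd9, a tetraspanin of adipose progenitors, in 88.4% of cluster 9 and 14.7% of cluster 6. The other 6, Pdgfra, Pdgfrb, Ly6a, F3, Cxcl14 and Cd24a, had no cluster 9 entry. Of 8 matrix genes listed, 1 was higher, the protease inhibitor gene Timp2 (98.1% against 75.7%), and the others lay within 10 points of all other cells. Of the early gene list, 4 were listed and 1 was higher, Klf4 (70.7% against 43.2%), a transcription factor expressed early in adipogenesis. The shares higher in the matrix and early lists lay under the 76.9% of all members.

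The lower members were led by genes of fat storage and differentiation. The 6 most negative differences were those of Cd36, a fatty acid transporter (3.5% of cluster 9 against 31.1% of other cells), Car3, a carbonic anhydrase of adipocytes (2.1% against 27.0%), A2m, a secreted protease inhibitor (1.7% against 25.3%), Serpina3n, another one (35.7% against 57.1%), Pnpla2, the lipase that opens fat breakdown (16.9% against 36.2%), and Scd1, a fatty acid desaturase (49.6% against 66.1%), which was tied with Fcor (10.1% against 26.6%). Cluster 5 had nearly the same values, with 2.4% for Cd36, 1.9% for Car3, 1.5% for A2m and 36.7% for Serpina3n. In cluster 6 these genes were detected in most cells, with 78.2%, 71.5%, 78.5% and 89.7%. Low detection of these genes was thus shared with cluster 5 and was not particular to cluster 9.

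Adipocyte genes were not uniformly low. Of the 16 on the list, 8 were listed for cluster 9, 3 lower, 1 higher and 4 within 10 points. Over all members, 76.9% were higher and 1.92% lower. Fabp4, a fatty acid binding protein of fat cells, was detected in 67.7% of cluster 9, 59.9% of cluster 5 and 99.9% of cluster 6, and Lpl, the lipoprotein lipase, in 88.4% of cluster 9 and 92.4% of other cells. Fabp5, a relative of Fabp4, was the higher one, at 95.6% against 82.6%. Pparg, Cebpa, Adipoq and Plin1, which define adipocytes, had no cluster 9 entry, and of 3 thermogenic genes with an entry in some cluster none had one in cluster 9. The 2 differentiating markers of the study, Serpina3n and Col5a3, had 1 entry in cluster 9, the lower one given above.

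**Figure D5:**
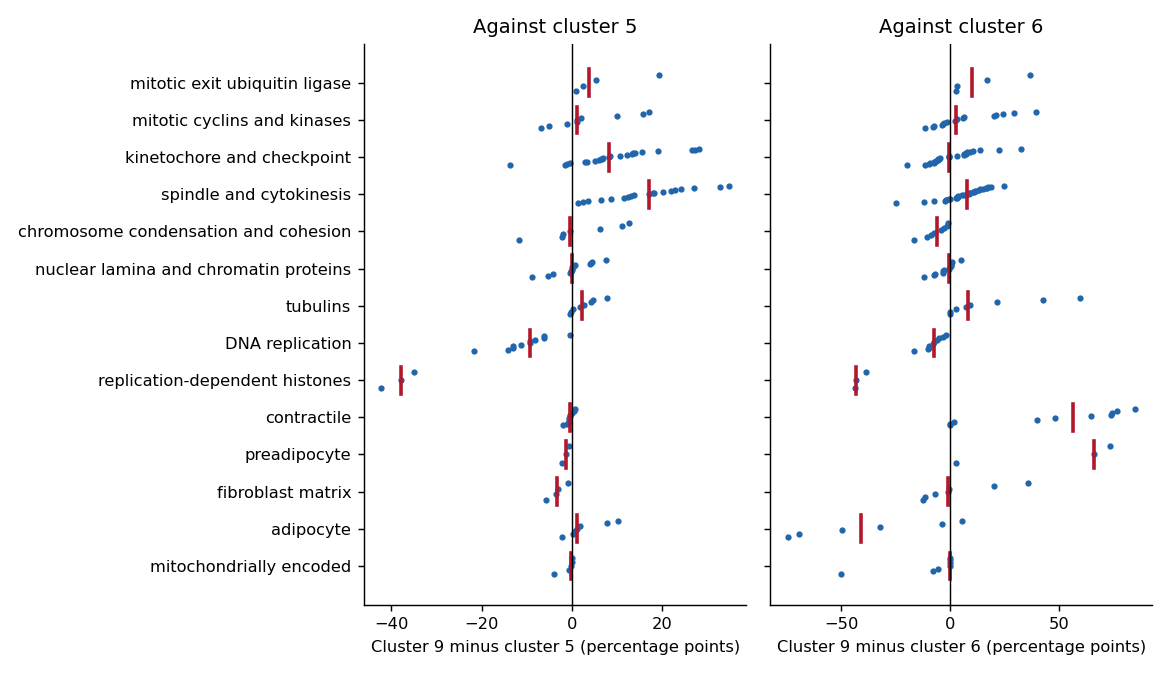
Cluster 9 minus cluster 5 (left) and minus cluster 6 (right) in detection, in percentage points, 1 blue point per gene listed for both clusters, by gene list, with the median as a red bar. Spindle and cytokinesis genes lie right of 0 against cluster 5 with a median of 17.2 points. DNA replication and histone genes lie left of 0 in both panels. Most contractile and adipocyte genes lie near 0 on the left. On the right, most contractile genes lie far right of 0 and most adipocyte genes left of it.

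A group of 38 members had an entry in cluster 9 and in no other cluster, and 168 members had an entry in neither cluster 5 nor cluster 6. The 38 were all higher, by 11.9 to 49.0 points, where 76.9% of all members were. They came into the table only through cluster 9, so this describes the authors' search and lends the cluster no support. Of these 168, 134 were higher and 2 lower, shares near the 76.9% and 1.92% of all members. The 38 held 7 mitotic genes: Pttg1, Fzr1, Cdc25b, Cdc25c, Gtse1, which acts on p53 and microtubules in G2 phase (35.7% against 5.6%), Kpna2, an importin (47.9% against 9.8%), and Kif14, a kinesin of cytokinesis (33.3% against 4.6%). Over all 938 members, 85 were mitotic. The 7 are named because their single entry was in cluster 9, and clusters 5 and 6 have no value for them.

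The genes removed in the DKO mice were looked at last, although the pooled table cannot show them by genotype. Hmgn1 was detected in 98.6% of cluster 9, 98.6% of cluster 5 and 98.7% of cluster 6, against 85.6% of all cells outside cluster 9, a difference of 13.0 points. Hmgn2 had no cluster 9 entry and was detected in 48.3% of cluster 6. Since cells of both genotypes were pooled, these values include cells labelled as lacking both genes. Exons of both genes were deleted in these mice, and since which ones is not given in the sources used here, a 3′ count of Hmgn1 does not check the genotype.

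Genes read as a gauge of general RNA content moved less. The list of cytosolic ribosomal protein genes held 80 genes, among them the kinase gene Rps6ka3, which had no cluster 9 entry. Of the 80, 6 were listed for cluster 9, with a median difference of 3.25 points at detections near 100%, and 1, Rps27l, was 10.4 points higher. The mitochondrial genome gave 9 listed genes, with a median of 1.1 points and none past 10 points, and mt-Nd6 was 7.9 points lower (43.4% against 51.3%). Apart from genes such as mt-Nd6, most of these listed genes were detected in nearly all cells in and out of the cluster. Detection could show little change in those.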

How the data were processed

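Preadipocytes of 8 samples in 4 groups (WT and DKO, day 0 and day 6, 2 each) were profiled with a droplet-based 3′ kit. Cell Ranger 6.0.0 and mm10 are named in the submitters' processing notes. Per the study's methods, the authors equalized depth between captures, filtered cells, removed immune, glial and endothelial cells, clustered the rest in Seurat and compared each cluster with all other cells by MAST; no removal of doublets is described and none could be done here. The deposited fractions are the fraction of cells with a gene detected inside a cluster and in all other cells, pooled over the samples, and are printed as percents. The larger fraction was never under 10.1%. The authors also deposited log2 fold changes, p-values and adjusted p-values of their comparison, and none was used. Cells per cluster and molecules per cell are unknown, so no interval or limit is given, and 0 columns of per-sample values were left unused.

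Differences of at least 10 percentage points were counted. Shares of cells were solved by least squares from the 10 genes present in all 12 clusters. Detection over all cells then varied by at most 0.130 points between entries of the same gene, over 2692 genes. From the shares, detection outside clusters 5, 6 and 9 was computed. The solver was tested on simulated data. A spreadsheet had turned some symbols into dates, and 2 members were restored from row names. Genes named are the 15 members with the largest and the 6 with the most negative difference, the 8 leading and the 8 trailing both clusters 5 and 6, members of gene lists, Ube2c, Cenpf, Mki67, Hmgn1 and Hmgn2. The members, lists and rules were chosen with earlier results of these data known. Gene coordinates are from GENCODE vM21, which named 935 of the 938 members, and promoters from RefSeq GRCm38.p6. Promoter windows of 50 bases on each side and combined motifs were chosen after seeing the data. Python 3.11.15, numpy 2.4.6, pandas 2.3.3 and matplotlib 3.10.9 were used.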

Additional observations from a re-analysis of the deposited data

How the results depend on the processing

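The share of cells in cluster 9 was 5.80% and came to 5.83% when solved from every gene with 2 or more entries or from genes of clusters 5, 6 and 9. Counts depended on the difference required. With a ratio of detection of 1.5 in place of 10 points, 362 members were higher in cluster 9 than elsewhere. At 5 and 20 points, 39 and 4 members were lower than elsewhere, 103 and 10 genes were higher than in cluster 5, and 41 and 4 genes were lower than in cluster 5. At 20 points, 130 genes were higher than in cluster 6. The other counts under these alternatives, and under a minimum detection of 25%, stayed within 1.5 times the counts at 10 points. Of 32 list medians against clusters 5 and 6, 0 changed sign on a log odds scale and 5 did relative to the median of all shared genes: cyclins and kinases against cluster 6, from 2.75 to −0.95 points, and 4 whose medians lay within 0.1 points of 0. The solved detection outside the 3 clusters moved by at most 0.0911 points with other shares. No paired analysis was possible because cells of all samples were pooled. Nothing was measured on how far these values vary between cultures, and the number of molecules per cell limits what detection can show.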

Other observations

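Of the 52 members at least 50 points higher in cluster 9, 7 were on no gene list, and they are named here after their values had been seen. Diaph3, a formin that builds actin filaments and takes part in cytokinesis, was detected in 77.8% of cluster 9 cells against 15% of others, and Dbf4, the activator of a kinase that fires replication origins, in 78.3% against 21.5%. Cip2a, an inhibitor of a phosphatase, was detected in 62.8% against 9.5%, and Rangap1, which sets up the Ran gradient of nuclear transport and the spindle, in 84.5% against 33.5%. Selenoh, a nuclear selenoprotein, was detected in 94.6% against 34.4%, and Ccdc34 in 94.6% against 41.9%. Tm4sf1, a surface protein, differed from the rest in that its detection was 79.7% in cluster 5 and 7.6% in cluster 6, against 87.7% in cluster 9.

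Among the 38 members listed for cluster 9 alone, the largest difference belonged to Reep4, which clears the endoplasmic reticulum from mitotic chromosomes, at 66.0% against 17.0%. Nde1, a dynein regulator of the spindle, was detected in 56.9% against 17.4%, Nup37, a nuclear pore and kinetochore protein, in 55.9% against 16.6%, and Fam83d, a spindle protein, in 42.1% against 5.2%. Terf1, a telomere-binding protein, was detected in 51.6% against 15.2%. These genes too were chosen after their values had been seen.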
